A study of Canis lupus familiaris with 13 samples.

Results

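Transcripts of the T cell receptor complex and of its first signaling steps were followed across 13 tumor biopsies from dogs given an intratumoral chemoimmunotherapy. The genes were chosen by name, as 9 symbols of the deposited count table: the CD3 chains CD3D, CD3E, CD3G, and CD247, the surface proteins CD2, CD5, and CD6, and the tyrosine kinases LCK and ZAP70. All 9 of the 9 symbols were found among the 43427 in the table, and all 9 passed the filter on low counts that left 20118 genes for testing. The rule names symbols and uses no measured value, but the members and gene lists were chosen with earlier results of these data known.

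The T cell receptor recognizes an antigen peptide but has no signaling tail of its own. It depends on the CD3 chains, whose cytoplasmic motifs are phosphorylated by LCK once the receptor is engaged, and ZAP70 then docks on those motifs and phosphorylates the adaptors downstream. CD2 is an adhesion and costimulatory receptor that binds CD58 or CD48, while CD5 and CD6 are related scavenger receptors that tune the strength of the signal. In a whole tumor biopsy these transcripts are used as a measure of the T cells present, although natural killer cells also carry CD247, CD2, LCK, and ZAP70, and some B cells carry CD5.

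The treatment, IMAX, is a nanoparticle made of a polyethyleneimine and lithocholic acid conjugate, loaded with the cytotoxic drug paclitaxel and with a cyclic dinucleotide, a STING agonist. It was injected into naturally occurring tumors of 3 companion dogs. Dog CL, an intact female Shih Tzu, had a ductal carcinoma in the cranial and a complex carcinoma in the caudal mammary gland, and both were biopsied before treatment and then at 1 week and 1 month following the second dose. Dog BM, a spayed Great Pyrenees, had a mammary carcinoma biopsied before treatment and then at 1 week and 3 weeks, again counted from the second dose. Dog RV, a spayed mixed breed dog, had a soft tissue sarcoma biopsied before treatment, 2 days after the second dose, and 2 weeks after the third dose, when both the injected site and tissue beside it were sampled. The groups were therefore before (4 libraries), early (4 libraries, 1 week or 2 days), and late (5 libraries, 1 month, 3 weeks, or 2 weeks). No untreated tumor was sampled, so the pretreatment biopsy of the same mass was the baseline, and time since the first biopsy and treatment cannot be told apart. Each tumor gave 1 library per time point, apart from the 2 late sites of RV, and both CL tumors share a host. P-values therefore measure the spread between these few tumors, with the CL pair counted as separate. In fits that include RV, its 2 late sites enter as separate libraries, so part of that spread lies within 1 mass.

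Total counts ranged from 11622444 to 29931125 per library. Before treatment effects are considered, 3 libraries stood apart. The mean log2 level of genes in gene-dense regions minus that of genes in gene-sparse regions was -1.16 in CL caudal before treatment, -0.85 in CL caudal at 1 month, and -1.47 in RV at 2 days, against -0.31 to 1.11 in the other 10. The RV biopsy taken after the second dose was read by the study's pathologists as inflamed skin. In that library 5 epidermal marker genes summed to 1630 CPM (counts scaled to a common library size), against 23.1 to 128 in the other 12 libraries. The 6 neutrophil markers summed to 6600 CPM in that library and to 2110 CPM in CL caudal before treatment. The 5 epithelial markers averaged 4.72 to 9.57 log2 CPM in the 9 mammary libraries and 1.96 to 3.98 in the 4 RV libraries, in the order the tumor labels give. The BM libraries carry a different series of library names, which cannot be told apart from the dog.

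In the assembly UU_Cfam_GSD_1.0, CD3G, CD3D, and CD3E lie next to each other on chromosome 5, at 15403667 to 15416467, 15417998 to 15421934, and 15428916 to 15440314, separated by 1531 and 6982 bases. CD247 lies on chromosome 7 (30828331 to 30902528) and CD2 on chromosome 17 (54699355 to 54711821). CD5 (55824104 to 55844496) and CD6 (55905105 to 55944991) are neighbors on chromosome 18, with 60609 bases between them. LCK lies on chromosome 2 (68338870 to 68362999). ZAP70 lies on chromosome 10 (45944828 to 45975965), and its annotated span overlaps that of C10H2orf92 by 118 bases. The strand setting used for counting is not given in the sources used here, so reads in that overlap could belong to either gene.

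Among the CD3 chains, CD3D and CD3G reached their highest levels of the series in the CL tumors at 1 month. CPM values were normalized by TMM, which corrects for library composition, and are not divided by gene length, so they are compared between libraries and not between genes. CD3D, the delta chain, stood at 2.28, 13.6, and 30.9 CPM in the CL cranial tumor before treatment, at 1 week, and at 1 month. In the CL caudal tumor it stood at 2.09, 0.978, and 16.3 CPM over the same times. In BM it was 3.06 before, 8.2 at 1 week, and 4.37 at 3 weeks, and in RV 3.53 before, 1.46 at 2 days, and 5.56 and 2.3 at the late injection and adjacent sites. Both 1 month libraries thus exceeded the other 11 for CD3D, and the caudal 1 week library was the lowest of the 13. That lowest value rests on 24 counts, with a 95% Poisson interval of 15.4 to 35.7 counts that covers counting error only.

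CD3G, the gamma chain, followed CD3D closely. It was 2.95, 26.7, and 29.8 CPM in CL cranial and 5.92, 3.26, and 41 CPM in CL caudal before treatment, at 1 week, and at 1 month. It was 5, 11.6, and 4.49 CPM in BM over time, and in RV 3.4 before, 3.03 at 2 days, and 8.48 and 4.35 at the late injection and adjacent sites. The CL cranial tumor was therefore high at both posttreatment times, and the caudal tumor at 1 month but not at 1 week. CD247, the zeta chain that carries most of the phosphorylation motifs, varied least of the members, with an SD of 0.74 log2 CPM over the 13 libraries. It was 6.34, 29.6, and 31.2 CPM in CL cranial, 9.63, 10.4, and 22 in CL caudal, and 11.9, 20.1, and 6.76 in BM. In RV it was 17.4 before, 11.6 at 2 days, and 21.9 and 14.5 late. For CD247 the late BM library lay below its pretreatment level, and RV started above the other tumors.

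CD3E, the epsilon chain and the usual target of T cell staining, had a different course from its 2 chromosomal neighbors. It was 4.6, 44, and 13 CPM in CL cranial, 0.658, 4.56, and 5.46 in CL caudal, and 6.39, 20.5, and 11.8 in BM. In RV it was 5.2 before, 8.19 at 2 days, and 6.65 and 3.57 late. All 4 tumors were above their own baseline early, and the 1 week level was the highest in CL cranial and BM. The CL caudal baseline was the lowest of the 13 libraries, at 11 counts with a 95% Poisson interval of 5.49 to 19.7.

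CD2, CD5, and CD6 peaked early in both CL tumors. CD2 was 8.04, 57.7, and 7.69 CPM in CL cranial before treatment, at 1 week, and at 1 month, and 1.02, 8.64, and 3.62 in CL caudal. In BM it was 6.78, 25, and 23.6, and in RV 18 before, 23.7 at 2 days, and 11.1 and 19.4 late. At 1 month CD2 in the cranial tumor was back at its starting level, whereas the caudal and BM tumors remained above theirs. CD5 was 1.94, 24.5, and 7.43 CPM in CL cranial, 2.21, 7.74, and 4.3 in CL caudal, and 5.36, 7.42, and 2.18 in BM. In RV it was 0.466 before, 2.3 at 2 days, and 1.63 and 1.09 late. RV was low for CD5 throughout, and its baseline rests on 7 counts. CD6 was 2.03, 20.7, and 5.51 CPM in CL cranial, 1.14, 2.49, and 1.77 in CL caudal, and 4.06, 9.2, and 4.83 in BM. In RV it was 1.13 before, 2.47 at 2 days, and 2.1 and 0.544 late. The early library was above the baseline in each of the 4 tumors for CD2, CD5, and CD6 alike.

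The kinases had a course like that of CD3E. LCK, the Src family kinase that starts the cascade, was 4.74, 48.5, and 22.2 CPM in CL cranial, 2.81, 8.19, and 14.1 in CL caudal, and 7.06, 19.8, and 14.3 in BM. In RV it was 6.86 before, 6.9 at 2 days, and 10.9 and 6.41 late. LCK was above the baseline in each mammary tumor at both later times, with no overlap between baseline and posttreatment mammary libraries. ZAP70, the kinase recruited to phosphorylated CD3, was 2.32, 24.4, and 9.35 CPM in CL cranial and 0.479, 2.32, and 4.3 in CL caudal. It was 5.89, 9.8, and 2.81 in BM, and in RV 3.6 before, 3.59 at 2 days, and 4.34 and 2.3 late. For ZAP70 the BM baseline was higher than the 1 month level of CL caudal, so the mammary groups overlapped. The CL caudal baseline of ZAP70 rests on 8 counts, with a 95% Poisson interval of 3.45 to 15.8, in a library that stood apart.

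**Figure D1:**
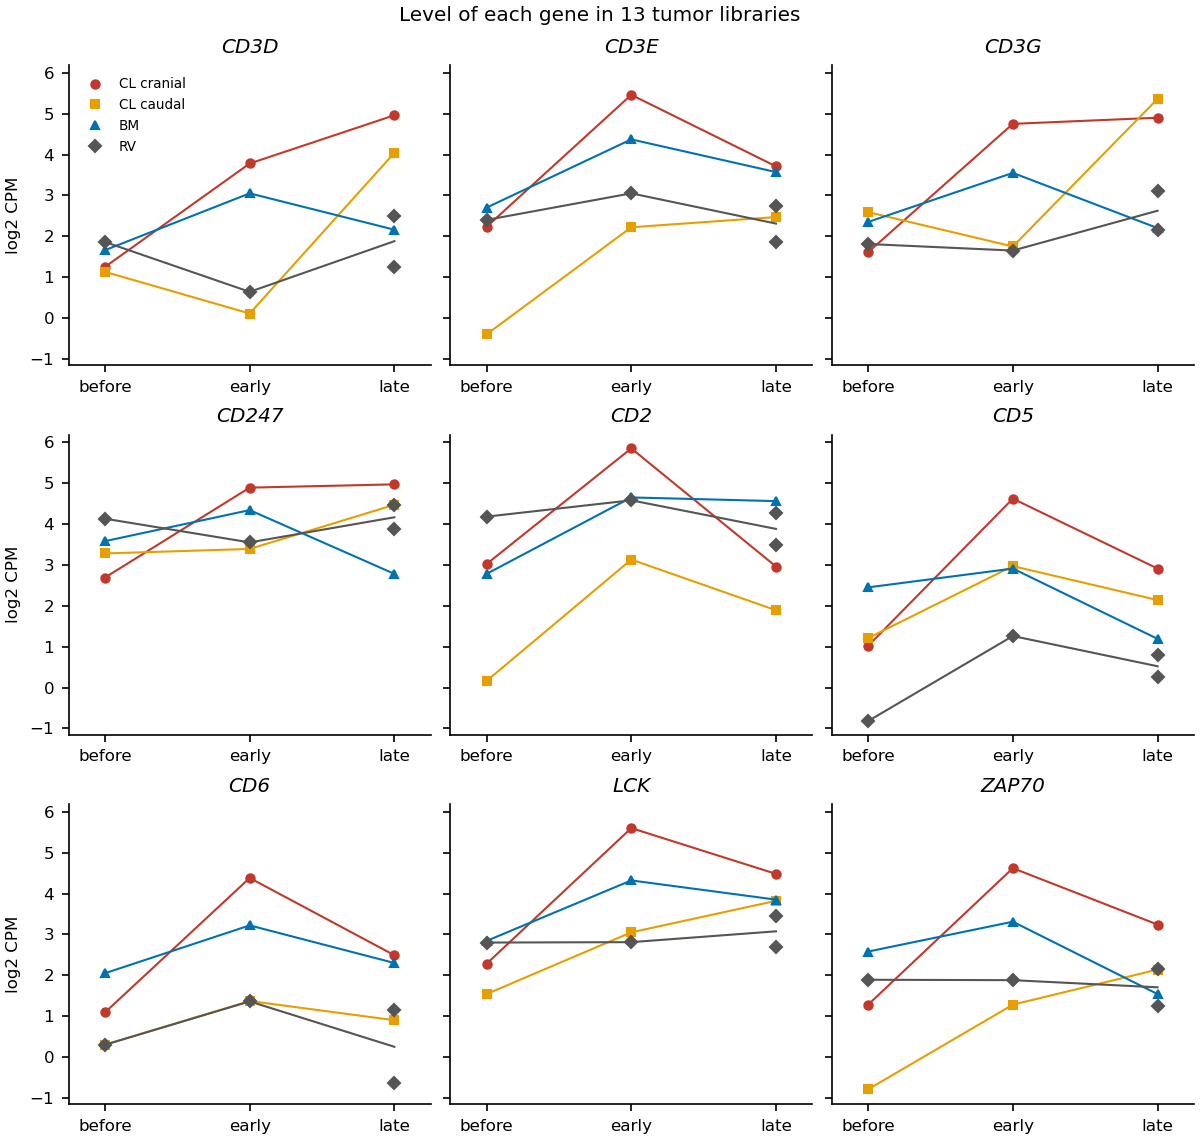
Level of each of the 9 genes (log2 CPM, prior count 2, vertical axis) in the 13 libraries by time group (horizontal axis), with 1 line per tumor and the late RV line drawn to the mean of its 2 sites. CD3D and CD3G are highest in the 2 CL tumors at the late time, whereas CD2, CD5, and CD6 peak early there.

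Early after treatment, the 9 genes were on balance higher than before, but none passed the threshold over all genes. Across the 4 tumors, with the tumor as a block, the log2 fold change was 2.04 ± 0.59 (SE) for CD2, 1.97 ± 0.61 for CD3E, 1.9 ± 0.67 for CD5, 1.69 ± 0.63 for CD6, and 1.56 ± 0.57 for LCK. The remaining 4 were ZAP70 at 1.37 ± 0.77, CD3G at 0.98 ± 0.78, CD247 at 0.57 ± 0.56, and CD3D at 0.47 ± 0.87. By the quasi-likelihood test of edgeR, with p-values adjusted by Benjamini-Hochberg, 0 of 9 had an adjusted p under 0.05, the smallest being 0.257 for CD2, and 0.00497% of all genes tested were called. At an unadjusted p under 0.05, 5 of 9 were higher (CD3E, CD2, CD5, CD6, and LCK), where 7.7% of all genes were. The median over the members was 1.56, against 0.25 over all genes. DESeq2, the alternative tool, called 4 of 9 (CD3E, CD2, CD5, and CD6), where it called 5.05% of all genes. No member had all early libraries above all baseline libraries, an arrangement that 2.71% of genes showed. In bulk tissue, a difference in the number of T cells and a difference in these RNAs per T cell cannot be told apart.

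Over all 4 tumors, 6 of the 9 genes were closer to the baseline late than early, while CD3D, CD3G, and CD247 were further from it. Log2 fold changes were largest for CD3G (1.74 ± 0.75), CD3D (1.71 ± 0.83), LCK (1.31 ± 0.53), and CD3E (1.15 ± 0.57), and lay between 0.56 and 0.79 for the other 5. The adjusted p was 0.973 for all 9 by edgeR, with 0 of 9 called and 0% of genes called. At an unadjusted p under 0.05, 2 of 9 (CD3G and LCK) were higher, against 1.28% of genes. DESeq2 called 0 of 9 and 0.0348% of genes. No member had all late libraries above all baseline libraries, as 0.293% of genes did.

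The mammary tumors, which share the 1 week time point, gave larger early values for 8 of the 9 genes, all but CD5. CD2 averaged 5.28 ± 3.74 CPM (SD, n = 3) before and 30.4 ± 25 at 1 week, and CD3E 3.88 ± 2.93 and 23 ± 19.8. The log2 fold change was 2.66 ± 0.62 (SE) for CD2, 2.54 ± 0.64 for CD3E, and 2.15 ± 0.59 for LCK, followed by ZAP70 (1.94 ± 0.89), CD6 (1.89 ± 0.66), and CD5 (1.79 ± 0.78). CD3G (1.43 ± 0.94), CD3D (1.25 ± 0.91), and CD247 (0.98 ± 0.66) had the smallest values. By edgeR 0 of 9 passed (adjusted p 0.514 to 0.85, 0% of genes called), and 5 of 9 had an unadjusted p under 0.05, against 5.02% of genes in the same direction. DESeq2 called 3 of 9 (CD3E, CD2, and LCK) and 1.58% of genes. In 3 of 9 members (CD2, CD5, and LCK) each 1 week library exceeded each baseline library, where 5.62% of genes did.

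At the late mammary biopsies the order of the members had changed. CD3D averaged 2.47 ± 0.511 CPM (SD, n = 3) before, 7.6 ± 6.35 at 1 week, and 17.2 ± 13.3 late, and its late log2 fold change against before was the largest at 2.61 ± 0.94 (SE). CD3G followed at 2.16 ± 0.96, then LCK at 1.84 ± 0.58, CD3E at 1.79 ± 0.63, ZAP70 at 1.35 ± 0.94, and CD2 at 1.31 ± 0.61. CD247 (0.95 ± 0.68), CD6 (0.69 ± 0.64), and CD5 (0.36 ± 0.77) were the smallest, and without the CL cranial tumor the CD5 value was -0.21. With 1 tumor left out, ZAP70 ranged from 0.28 without CL caudal to 2.68 without BM, and CD247 from 0.38 without CL cranial to 1.66 without BM. By edgeR 0 of 9 passed (adjusted p 0.639 to 0.907, 0% of genes called), and CD3D, CD3E, and LCK had an unadjusted p under 0.05, 3 of 9 against 2.81% of genes. DESeq2 called 0 of 9 and 0.931% of genes. Each late library exceeded each baseline library for CD3D and LCK, 2 of 9 members against 4% of genes.

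Set directly against 1 week, the late mammary values were lower for CD5 (-1.42 ± 0.74), CD2 (-1.35 ± 0.62), and CD6 (-1.2 ± 0.64), and higher for CD3D (1.36 ± 0.94) and CD3G (0.73 ± 0.96), on the log2 scale with SE. CD3E (-0.75 ± 0.61), ZAP70 (-0.59 ± 0.87), LCK (-0.32 ± 0.57), and CD247 (-0.03 ± 0.66) lay between. None of these differences passed (edgeR adjusted p 0.333 to 0.985, 0% of genes called), 0 of 9 had an unadjusted p under 0.05, where 15.4% of genes did, and DESeq2 called 0 of 9 and 4.77% of genes. Without the CL caudal tumor the CD3G value was -0.37, and without CL cranial that of LCK was 0.2.

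The CL tumors are the pair sampled at 1 month. Before treatment, CD3D, CD3G, and CD247 had not exceeded 2.28, 5.92, and 9.63 CPM in either tumor, and at 1 month they were at least 16.3, 29.8, and 22 CPM in both. Over the 6 CL libraries the 1 month log2 fold change was 3.26 ± 0.94 (SE) for CD3D, 2.97 ± 0.95 for CD3G, 2.68 ± 0.8 for ZAP70, 2.35 ± 0.74 for CD3E, 2.29 ± 0.69 for LCK, and 1.66 ± 0.66 for CD247. It was 1.39 ± 0.72 for CD5, 1 ± 0.78 for CD6, and 0.92 ± 0.69 for CD2. By edgeR 0 of 9 passed (adjusted p 0.634 to 0.681, 0% of genes called), while the first 6 of these genes had an unadjusted p under 0.05, against 2.9% of genes in the same direction. DESeq2 called 4 of 9 (CD3D, CD3G, LCK, and ZAP70), with adjusted p between 0.0106 and 0.0464, and 1.17% of genes. Both 1 month libraries exceeded both baseline libraries for 7 of 9 members, the exceptions being CD2 and CD6, and for 13.8% of genes.

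Since both CL caudal libraries that stood apart enter this comparison, it was repeated without each. Without CL caudal before treatment, edgeR called 4 of 9 (CD3D, CD3G, CD247, and LCK), with a log2 fold change of 4.55 for CD3D and 4.39 for CD3G, but 3098 of all genes were called as well. Without CL caudal at 1 month, edgeR called 0 of 9, and CD3D and CD3G were at 2.63 and 2.02. In the cranial tumor alone, with none of the 3 libraries that stood apart in gene density, the 1 month level was 13.1 times the baseline for CD3D, 9.8 times for CD3G, 4.86 times for CD247, and 4.6 times for LCK, with no replicate behind these ratios. The cranial 1 month library still differed from the other cranial libraries. Ribosomal protein genes took 11% of its counts, against 6.47% before and 4.66% at 1 week. It had 24339 symbols with a count, against 28941 and 30832. It was also the shallowest of the 13 libraries, with 11622444 total counts against 16259854 before and 19080209 at 1 week. The part of these differences in the ratios was not tested.

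At 1 week the same 2 tumors had given another order. The log2 fold change was 2.98 ± 0.74 (SE) for CD3E, 2.87 ± 0.8 for ZAP70, 2.85 ± 0.7 for CD2, 2.66 ± 0.75 for CD5, 2.49 ± 0.7 for LCK, and 2.24 ± 0.81 for CD6, and 1.46 ± 1.02 for CD3G, 1.08 ± 0.67 for CD247, and 0.95 ± 0.97 for CD3D. By edgeR 0 of 9 passed (adjusted p 0.476 to 0.737, 0% of genes called), and the first 6 had an unadjusted p under 0.05, against 4.76% of genes. DESeq2 called 5 of 9 (CD3E, CD2, CD5, LCK, and ZAP70) and 1.68% of genes. For 5 of 9 members both 1 week libraries exceeded both baselines, as for 14.1% of genes. The CD3D and CD3G values rest on the cranial tumor: without its 1 week library they were -0.94 and -0.77.

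**Figure D2:**
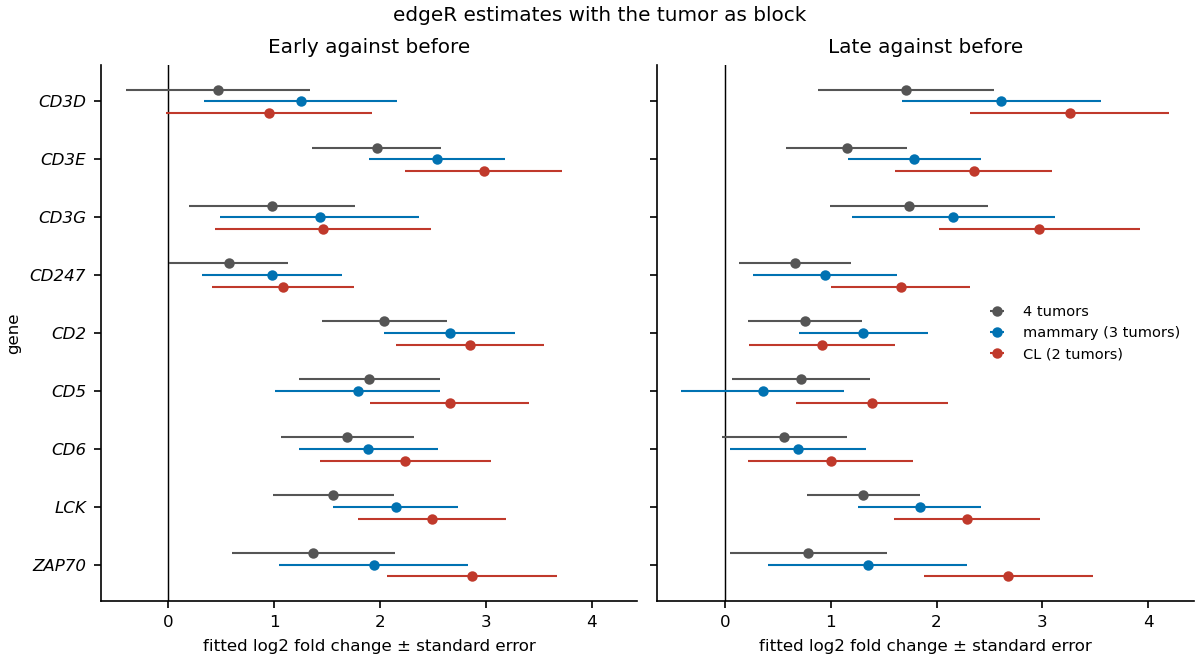
Log2 fold change of the 9 genes against the pretreatment biopsy, from edgeR fits to all 4 tumors, 3 mammary tumors, and 2 CL tumors. Points are estimates, bars are 1 SE, and colors mark the fits. The early and late times are in separate panels. In the CL tumors CD3D and CD3G have the largest late values (3.26 and 2.97), and CD3E the largest early value (2.98).

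From 1 week to 1 month, CD3D, CD3G, and CD247 were higher and CD2, CD5, and CD6 lower in both CL tumors. CD3E, LCK, and ZAP70 were lower in the cranial and higher in the caudal tumor. These are single libraries with no replicate check. The median change of the 9 genes against before was 3.23 early and 1.96 late in CL cranial (log2), where the all-gene medians were 0.01 and -0.12. In CL caudal the median was 1.51 early and 2.28 late, against all-gene medians of 0.1 and -0.01. At 1 month 8 of 9 members were above baseline in the cranial tumor (46.6% of all genes) and 9 of 9 in the caudal tumor (48.1%).

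Late changes from baseline were smaller in RV and BM than in both CL tumors for 7 of 9 genes, not CD2 and CD5. RV was averaged over its 2 late sites. The share of all genes in this arrangement is not given, so the count says nothing particular to the members. As levels the order did not hold, with late CD3E at 5.46 CPM in CL caudal and 11.8 CPM in BM. In BM all 9 genes were above baseline at 1 week, where 49.1% of all genes were (median 1.2 on the log2 scale, all-gene median -0.02). Each of them was lower at 3 weeks than at 1 week, whereas 46.9% of all genes were higher. At 3 weeks 5 of 9 were above baseline, a count near the 48% of all genes that were. The median was 0.25 (all-gene median -0.07), from 1.78 for CD2 to -1.26 for CD5. The 3 week biopsy of BM had the lowest epithelial marker level of the mammary tumors (4.72 log2 CPM), close to CL caudal before treatment (4.75). In RV 5 of 9 members were above baseline at 2 days, LCK by only 0.01, a count near the 54.5% of all genes that were. The median was 0.01 (all-gene median 0.26), from 2.09 for CD5 to -1.22 for CD3D. At 2 weeks the median over the mean of both sites was 0.02 (all-gene median 0.02). The injection site exceeded the adjacent site for 8 of the 9 genes, by 0.54 for CD5 to 1.78 for CD6 on the log2 scale and by 1.24 for CD3D, and was lower for CD2 (-0.8). These are single libraries, and the CD6 value rests on 31 counts at the injection site and 9 at the adjacent site. The share of all genes higher at the injection site is not given, so this count says nothing particular to the members.

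**Figure D3:**
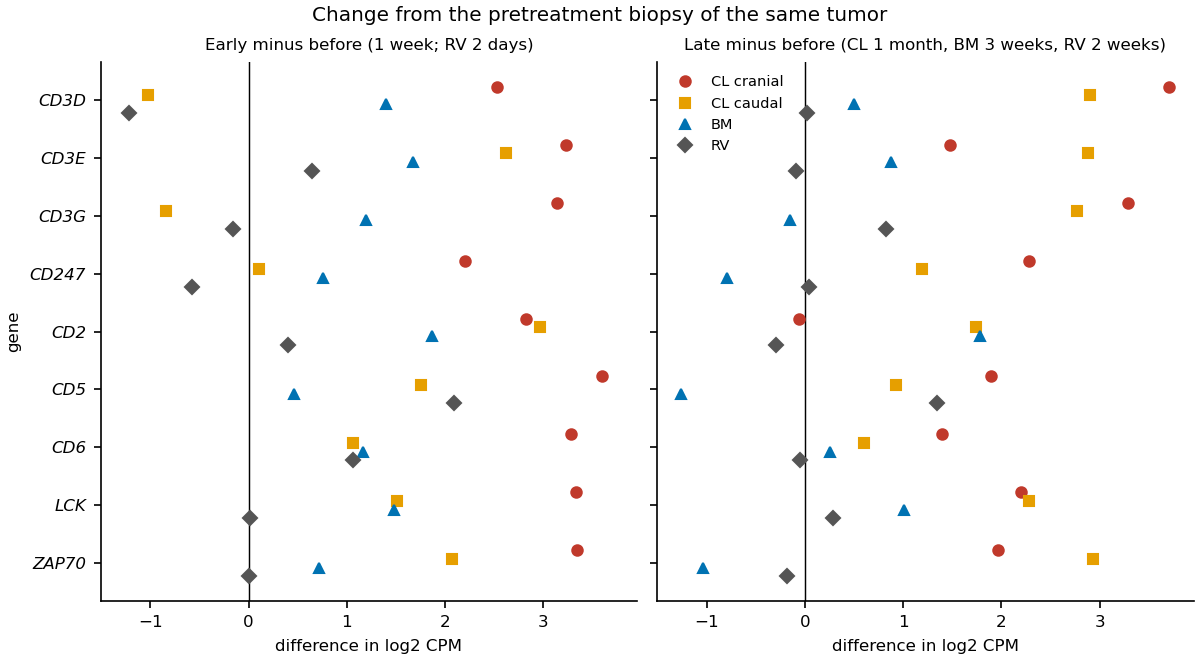
Log2 change of each of the 9 genes against the pretreatment biopsy of the same tumor, with 1 panel per time and 1 color per tumor; each point is a single library minus its baseline, except the late RV point, which is the mean of 2 sites. The CL cranial tumor is highest for 8 of the 9 genes early, and at the late time both CL tumors lie above RV and BM for 7 of the 9, all but CD2 and CD5. The shares of all genes in these arrangements are not given.

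The early change in RV minus that in the mammary tumors was -2.52 ± 1.75 (log2, SE) for CD3D, -2.25 ± 1.13 for CD2, -2.14 ± 1.11 for LCK, -1.94 ± 1.62 for ZAP70, and -1.87 ± 1.18 for CD3E. It was -1.6 ± 1.74 for CD3G, -1.56 ± 1.22 for CD247, -0.77 ± 1.39 for CD6, and 0.5 ± 1.45 for CD5. By edgeR 0 of 9 of these differences passed (adjusted p 0.246 to 0.854, 0% of genes called), 0 of 9 had an unadjusted p under 0.05 against 24.4% of genes, and DESeq2 called 0 of 9 and 17.1% of genes. Because RV is 1 dog, 1 tumor type, and the only 2 day biopsy, these cannot be told apart, and the fit assumed that RV varies like the mammary tumors.

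Within libraries, 2 courses could be told from the differences between members. Only the change of such a difference between libraries is of use, since its size also depends on gene length. CD3D minus CD2 was -1.78 before, -2.07 at 1 week, and 1.99 at 1 month in CL cranial (log2 CPM), and 0.98, -3.02, and 2.14 in CL caudal. It was -1.12, -1.6, and -2.41 in BM, and in RV -2.32 before, -3.94 at 2 days, and -0.98 and -3.02 late. The 2 CL libraries at 1 month were the highest of the 13, and the early library was the lowest of its tumor in CL and RV but not in BM. CD3G minus CD3E was -0.62, -0.71, and 1.19 in CL cranial and 2.99, -0.47, and 2.89 in CL caudal, and between -1.41 and 0.35 in the 7 libraries of RV and BM. The CL caudal baseline was as high as its 1 month library here, and both are libraries that stood apart. The ribosomal protein share was 12.2%, 6.61%, and 10.9% in CL caudal before, at 1 week, and at 1 month, so in CL the 3 libraries with the highest CD3D minus CD2 were those with the highest share. In BM the share was 5.28%, 6.93%, and 7.17%, and in RV 16.5% before, 3.16% at 2 days, and 13.1% and 9.79% late. The part of these library differences was not tested.

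Over the 13 libraries, which share 4 tumors and 3 dogs, CD3D and CD3G had a Pearson r of 0.92, CD3E and ZAP70 0.94, and CD3E and LCK 0.91. CD3D and CD2 had an r of 0.11, CD3G and CD2 -0.04, and CD3D and CD3E 0.56. After each tumor was centered on its own mean, these were 0.96, 0.9, 0.93, 0.02, 0.13, and 0.47, in the same order. LCK (0.97), ZAP70 (0.93), and CD3E (0.89) were closest to the mean of the other 8 members, and CD2 (0.45) was the furthest. These correlations describe the libraries and carry no test.

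The members were also set against PTPRC, which encodes CD45, the phosphatase found on leukocytes in general. PTPRC was 53.4, 304, and 151 CPM in CL cranial, 87.1, 109, and 167 in CL caudal, 44.9, 109, and 42.9 in BM, and in RV 45.5 before, 354 at 2 days, and 41.6 and 44.9 late. The mean of the 9 members minus PTPRC was -3.91, -3.37, and -3.4 in CL cranial (log2 CPM), -5.44, -4.63, and -4.35 in CL caudal, and -2.94, -3.02, and -2.74 in BM. In RV it was -3.45 before, -6.16 at 2 days, and -2.74 and -3.6 late. The RV library at 2 days was thus the lowest of the 13, with PTPRC at its highest and the mean of the members near its baseline. Neutrophil markers were also highest in that library. In both CL tumors the mean of the 9 members was above its baseline relative to PTPRC at 1 week and at 1 month. Single members differed from that mean. CD2 in CL cranial was 8.04 CPM before and 7.69 at 1 month, while PTPRC was higher at 1 month. CD3D in CL caudal was 2.09 CPM before and 0.978 at 1 week, while PTPRC was higher at 1 week.

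**Figure D4:**
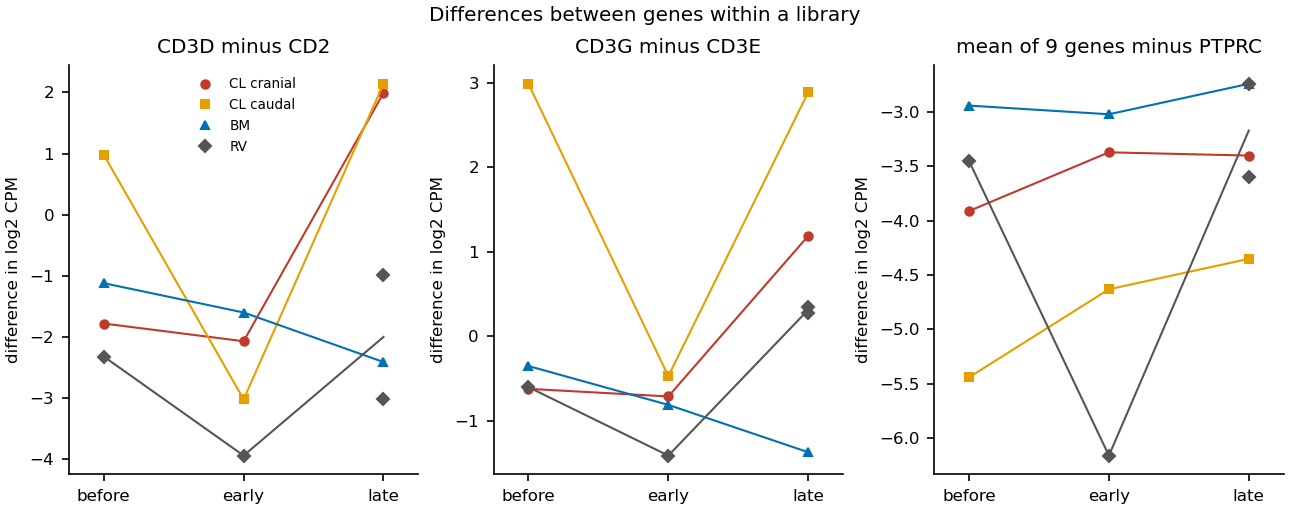
Differences within a library by time group (log2 CPM, 1 line per tumor, the late RV line drawn to the mean of its 2 sites): CD3D minus CD2, CD3G minus CD3E, and the mean of the 9 genes minus PTPRC. CD3D minus CD2 is 1.99 and 2.14 in the CL tumors at 1 month and at most 0.98 in the other 11 libraries, and RV at 2 days is lowest relative to PTPRC, at -6.16.

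Other genes of the pathway were counted from lists of its parts. Of 58 listed genes, 52 were in the table and tested. The receptor's constant regions were listed as TRAC, TRBC1, TRBC2, TRDC, TRGC1, and TRGC2, and none was found under those symbols. In the CL tumors at 1 month, 43 of the 52 had a positive log2 fold change, where 45.4% of all genes did, with a median of 1.02 against -0.1 over all genes, and 19 had an unadjusted p under 0.05 and a higher level, against 2.9% of genes. None passed by edgeR (smallest adjusted p 0.634). At 1 week 46 of 52 were positive (51.4% of all genes), with a median of 1.22 (all genes 0.03). At the late mammary biopsies against 1 week, 26 of 52 were positive, with a median of 0 (all genes -0.19).

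Among the coreceptors, CD8A and CD8B, which bind class I molecules, were above baseline in both CL tumors and in BM at both later times, and below it in RV at 2 days. CD8A was 0.968, 9.45, and 4.98 CPM in CL cranial and 0.239, 2, and 2.66 in CL caudal, with a 1 month log2 fold change of 2.91 ± 0.78 (SE, edgeR adjusted p 0.634). CD8A in BM was 1.03, 1.85, and 2.18, and in RV 1.13 before, 0.449 at 2 days, and 3.73 and 1.45 late. CD8B was 2.23, 11.1, and 10 CPM in CL cranial, 0.778, 2.12, and 3.89 in CL caudal, 2.94, 5.68, and 6.09 in BM, and in RV 3.8 before, 1.07 at 2 days, and 1.02 and 2 late. In RV at the late injection site CD8A was thus above and CD8B below its baseline. CD8B had a 1 month log2 fold change of 2.26 ± 0.71 (adjusted p 0.634). CD4, which binds class II molecules and in dogs is also carried by neutrophils, did otherwise. CD4 was 3.29, 97.8, and 12.2 CPM in CL cranial, 3.95, 3.3, and 4.84 in CL caudal, and 11.1, 9.05, and 3.11 in BM, and in RV it went from 4.73 to 516 at 2 days and to 4.68 and 3.87 late. The 2 libraries with the highest CD4 were those with the highest mean level of the 6 neutrophil markers (8.22 log2 CPM in RV at 2 days and 5.02 in CL cranial at 1 week, against 3.92 or less elsewhere). By their summed level the match does not hold, since the neutrophil markers summed to 2110 CPM in CL caudal before and 884 at 1 month, where CD4 was low, and to 456 CPM in CL cranial at 1 week. The part of neutrophils in the CD4 level was not tested.

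Of 18 kinases and adaptors near the receptor, 17 were positive in the CL tumors at 1 month, with a median of 2.02. LAT, the membrane adaptor that ZAP70 phosphorylates, was 1.74, 18.9, and 18.1 CPM in CL cranial and 0.718, 1.51, and 9.28 in CL caudal. At 1 month LAT was slightly below its 1 week level in the cranial tumor and above it in the caudal tumor. Its 1 month log2 fold change was 3.61 ± 0.88 (SE). SH2D1A, the SAP adaptor of the SLAM receptors, had the largest value of this list, at 3.77 ± 0.98, and PLCG1, the phospholipase C that LAT recruits, the smallest, at -1.52 ± 0.68. The edgeR adjusted p was 0.634 for LAT, SH2D1A, and PLCG1.

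Further from the receptor, 9 of 10 downstream genes were positive at 1 month (median 1.26), from RASGRP1, a Ras activator of lymphocytes, at 2.86 ± 0.92 (SE) to NFATC1, a calcineurin-dependent transcription factor, at -0.16 ± 0.59. Of 17 phosphatases and negative regulators, 11 were positive (median 0.74), from UBASH3A, which restrains receptor signaling in T cells, at 3.09 ± 0.96 to the diacylglycerol kinase DGKA at -0.88 ± 0.58. PTPRC was at 1.16 ± 0.59. Of the 4 ligands of CD2 and CD6, 3 were positive (median 0.06), from CD48 at 1.78 ± 0.78 to CDCP1 at -0.06 ± 0.6. The edgeR adjusted p of these genes lay between 0.634 and 0.976. The genes named at the ends of each list are its largest and smallest values.

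In the CL tumors, markers of other lymphocytes were mostly higher along with the members at 1 month. At 1 week this held for B cell and natural killer markers, but less uniformly for plasma cell markers. In the CL tumors at 1 month, 7 of 8 B cell markers and 5 of 5 plasma cell markers had a positive log2 fold change, with medians of 2.59 and 2.45, and of the 6 natural killer markers 5 were tested and positive (median 1.37). The B cell markers summed to 12.2, 43.9, and 37.6 CPM in CL cranial and 2.69, 9.94, and 12.4 in CL caudal before, at 1 week, and at 1 month. The natural killer markers summed to 2.57, 27.9, and 25 CPM and to 3.41, 3.87, and 11.9 CPM. The plasma cell markers summed to 653, 432, and 1440 CPM and to 458, 71.7, and 1130 CPM. At 1 week, 3 of 5 plasma cell markers had a positive log2 fold change, with a median of 0.3. All 8 B cell markers were positive then (median 1.86), as were the 5 natural killer markers tested (median 1.64). Over all genes 51.4% were positive at 1 week and 45.4% at 1 month. The natural killer receptor gene NCR1 had 1 count before and 3 at 1 month in CL cranial, 1 count at both times in CL caudal, and 24 and 8 counts at 1 week. Macrophage markers were positive for 7 of 9 at 1 month, with a median of 0.2, and for 8 of 9 at 1 week, with a median of 1.48. The part of other lymphocytes in CD247, CD2, CD5, LCK, and ZAP70 was not tested. In the 3 mammary tumors at 1 week, the 3 endothelial markers also had a median of 2.41, each with an unadjusted p under 0.05.

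Among the 10 genes most like the members over the 13 libraries, by Pearson r of log2 CPM with the mean of the 9, were LOC609053 (0.957), LOC480788 (0.939), LAT (0.938), LOC106557461 (0.93), GZMB (0.9), SIT1 (0.898), PRF1 (0.892), UBASH3A (0.888), and GRAP2 (0.886). After each tumor was centered on its own mean, 3 of the 10 remained among the first 10, LOC609053 and LOC480788 with them. LOC480788 and LOC609053 are annotated as constant region gene segments, and the table used does not name their chain. They lie on chromosome 16 at 6540311 to 6547906 and 6549524 to 6555282, 1618 bases apart, with PRSS2 and EPHB6 as the nearest protein-coding genes. Such adjacent segments can be near copies, so the split of reads between them is uncertain. LOC609053 was 1.21, 28.5, and 15.4 CPM in CL cranial, 0.837, 2.16, and 5.73 in CL caudal, 4.64, 9.02, and 5.08 in BM, and in RV 2.8 before, 1.29 at 2 days, and 2.71 and 1.69 late. LOC480788 was 2.61, 29.4, and 16.2 CPM in CL cranial, 1.08, 2.49, and 9.76 in CL caudal, 2.83, 10.3, and 4.07 in BM, and in RV 5.53 before, 3.14 at 2 days, and 5.83 and 3.81 late. Both segments were above baseline in each mammary tumor at both later times, and their 1 month log2 fold changes in the CL tumors were 3.16 ± 0.91 and 2.99 ± 0.85 (SE, edgeR adjusted p 0.634).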

How the data were processed

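Strand-specific RNA-seq libraries from 13 biopsies were aligned by the authors to CanFam4.0 with Strand NGS, and raw counts per gene symbol were deposited without normalization. The annotation release and the counting rule are not given in the sources used here. Positions came from RefSeq's annotation of UU_Cfam_GSD_1.0, where 98% of the 43427 symbols were found. Libraries were grouped by their labels as before, early, or late, and the block is the tumor, since its libraries come from 1 mass. Deviations of same-tumor libraries from their group means correlated at a mean r of 0.23 (before and early), 0.57 (before and late), and 0.24 (early and late), against -0.19 to -0.07 between tumors. No library was a copy of another (the smallest chi-square divided by its degrees of freedom was 44.5 over 78 pairs).

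Genes were filtered with filterByExpr (minimum count 10), normalized by TMM, and fitted with glmQLFit and glmQLFTest in edgeR 4.0.16 (R 4.3.3), with tumor and time as factors. Fits used all 13 libraries (20118 genes), the 9 mammary libraries (19975 genes), or the 6 CL libraries (20116 genes), and a further fit added a time by tumor type term. P-values were adjusted by Benjamini-Hochberg with a threshold of 0.05. Log2 CPM used a prior count of 2. Gene density was the number of annotated genes within 500 kb, with the upper (at least 37) and lower (at most 15) quartiles compared. The members and gene lists were chosen with earlier results of these data known. All members were named, with the largest and smallest value of each list at 1 month, CD4, CD8A, CD8B, LAT, PTPRC, and genes among the 10 most like the members. A further gene that this rule names is not reported here. NCR1 was named after its values were seen. Alternatives were other size factors, no filter, DESeq2 1.42.0, no block, summed CL tumors, single late RV sites, only the groups compared, a prior count of 0.5, and each tumor or CL library left out. Models were tested on simulated data, mostly with less spread between libraries than these data have and with no tumor effect. How well changes are recovered at the spread of these data is not known from that. Depth limits low values, and intervals cover counting error only. Figures were made with matplotlib 3.10.9 in Python 3.11.15.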

Additional observations from a re-analysis of the deposited data

Results flagged for a closer look

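CD3E in CL caudal before treatment lay at -0.4 log2 CPM, far below the 2.23 to 2.7 of the other 3 baseline libraries, by Dixon's test on groups of 4 or 5 libraries. It was the only such value in 30 groups checked, where chance gives about 1.5, and it belongs to a library that stood apart in gene density.

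In 6 of 36 comparisons between dogs, both CL tumors lay on 1 side of their baseline and the other dog on the opposite side. For RV at the late time both sites had to lie on the opposite side. These differences were not tested. The share of all genes in this arrangement is not given, so the count says nothing particular to the members. Early, CD247 was at -0.58 (log2 change) in RV and at 0.11 and 2.2 in the CL tumors. ZAP70 was practically unchanged in RV, at -0.0023 (3.6 CPM before and 3.59 at 2 days), and at 2.07 and 3.34 in CL. Late, BM was at -0.15 for CD3G, -0.8 for CD247, -1.3 for CD5, and -1 for ZAP70, where the CL tumors lay between 0.93 and 3.29. By the mean of the 2 late sites, RV was also slightly below its baseline for CD3E (-0.09), CD6 (-0.05), and ZAP70 (-0.18), with both CL tumors above theirs.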

How the results depend on the processing

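Depth limits the low members (7 to 24 counts in some libraries), and few tumors limit each test. Of the recomputed log2 fold changes of the members, 600 kept their direction and side of the threshold, 34 newly passed it, and 14 changed sign. Unless a value or the setting shows it, the cause was not tested.

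Genes called over all tumors early (1) were 0 with DESeq2's size factors, without the replicate block, with CL summed, with only the 2 groups, and without each tumor (0 to 0), 17 without the filter, and 956 by DESeq2 (members 4). Without the replicate block no other call changed beyond 1.5 times. DESeq2 called 7 genes over all tumors late, 267 in mammary tumors at 1 week (members 3), 186 late, and 952 late against 1 week. It called 273 in CL at 1 week (members 5), 185 at 1 month (members 4), and 3435 for RV against mammary. Without the filter these were 29, 7, and 110 in mammary tumors, 172 (members 2) and 274 (members 2) in CL, and 1505. Leaving out a CL library, where the lone library is assumed to vary like the others, gave 7 to 3150 genes (members 0 to 4) at 1 week and 2 to 3098 (members 0 to 4) at 1 month. The extremes were without CL cranial before (3150 at 1 week, 2 at 1 month) and without CL caudal before (3098 at 1 month). Leaving out BM gave 1921 for RV against mammary. Tumor centering kept 3 of the 10 genes most like the members.

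Signs changed for CD3D over all tumors early (-0.1 without CL cranial, range -0.21 without BM to 1.25), and for CD3D (-0.22 without CL cranial before, range -0.94 without CL cranial at 1 week to 2.23) and CD3G (-0.77 without the latter to 2.9) in CL at 1 week. In mammary tumors late, CD5 was -0.21 (to 1.39) without CL cranial and -0.05 with CL summed. Late against 1 week, CD247 was 0.03 with DESeq2's size factors, 0.03 by DESeq2, and 0.57 (from -0.52) without BM, CD3G -0.37 (to 1.51) without CL caudal, and LCK 0.2 (from -0.84) without CL cranial. For RV against mammary, CD6 was 0.03 (from -1.28) without CL cranial and CD5 -0.53 (to 1.35) without BM. The values in parentheses are the other end of the range over tumors left out.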
